A study of Mus musculus with 18 samples.

Results

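The data describe how cultured pancreatic islets of wild-type mice changed their RNA when 3 inflammatory cytokines were added for 24 h. They rest on 6 of the 18 libraries of the series, the 3 cytokine-treated and the 3 untreated libraries labelled ZNT8 +/+, and every gene that passed a low-count filter was tested, which left 17590 of 55536. Islets came from male mice aged 17 weeks on the NOD.CB17-Prkdcscid/NCrCrl (NOD.SCID) background and were rested overnight in culture. They were then kept for 24 h in plain medium or in medium with 100 pg/ml tumour necrosis factor alpha (TNF), 150 pg/ml interleukin 1 beta (IL-1) and 10 pg/ml interferon gamma (IFN). The other 12 libraries came from heterozygous (ZNT8 +/-) and knockout (ZNT8 -/-) islets of the same strain under both treatments, and they entered here through the shared estimate of spread and a comparison of responses. All mice carried the scid mutation, which leaves them without mature T and B cells. The labels name 3 mice but do not tie libraries to mice, so p-values measure only the spread between these libraries, which may be technical.

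Pancreatic islets are clusters of hormone cells, mostly insulin-secreting beta cells, with a minor share of vessel, stromal and resident immune cells. TNF and IL-1 bind separate receptors whose adaptors both free the transcription factor NF-kB from its inhibitors. IFN acts through JAK kinases and STAT factors, which induce IRF1 and with it antigen presentation genes, guanylate-binding proteins and chemokines. The same mixture is widely used in culture to imitate the inflamed islet of type 1 diabetes.

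Each wild-type library held 24099962 to 28215439 counted reads, and mitochondrially encoded genes took 1.094% to 1.312% of them. Levels are given in CPM, a gene's reads scaled to a common library total, and log2 fold changes (cytokine-treated against untreated) are given ± standard error from edgeR's quasi-likelihood fit. A gene is said to have risen or fallen where its Benjamini-Hochberg adjusted p from that fit was below 0.05. The libraries carried beta, alpha and delta cell hormones at high level, while Cd3d, Cd8a and Ms4a1, defining genes of T and B cells, had no read in any wild-type library. Among the 3 untreated libraries, replicate 1 stood apart: it was the highest of the 3 for 1094 of the 2207 genes that rose (49.6%) and for 174 of the 272 that rose at least 4-fold (64%), against 32.4% of all tested genes. Among the treated libraries, replicate 1 was the highest for 939 of the 2207 (42.5%, against 35.5% of all tested genes). Of the 2308 genes that fell, 1221 were lowest in replicate 1 among untreated libraries (52.9%, against 34.9% of all tested genes). Among treated libraries 1292 of them were lowest in replicate 1 (56%, against 38.8%). Some of the results that rest on untreated replicate 1 are given with and without it. Genes given with 1 value only may depend on it too. Without it the log2 fold change of Hamp, for example, moved from 4.33 to 4.90 and that of Cxcl1 from 5.49 to 6.01. The source of the difference of untreated replicate 1 was not tested.

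Cytokines changed 4515 of the 17590 tested genes (25.7%), of which 2207 rose (12.5%) and 2308 fell (13.1%). In whole islets, fewer cells of a type and less RNA per cell cannot be told apart. The rising and falling genes were alike in number and in median log2 fold change (0.50 and -0.55). At 1.5-fold or more 982 rose and 1079 fell, whereas at 2-fold or more rises outnumbered falls, at 624 against 516. Of the genes that rose 272 had a fitted fold of at least 4 and 120 of at least 8, whereas 90 genes fell at least 4-fold and 20 at least 8-fold. In 4 of the rising genes (Cd177, Stfa3, Timd2 and Gm44889) and 4 of the falling ones (1700001C02Rik, 4930555F03Rik, Pde6c and Rnf212b) no wild-type library of the lower group had a read, so their fitted fold is no bound. Gene lists are counted over the members that passed the low-count filter. These were, for example, 25 of 28 acute phase genes, 28 of 32 cytokines, 15 of 18 CC and 14 of 16 CXC and CX3C chemokines. A member that passed it only through the treated libraries had to differ, so these counts are descriptions. Each count is to be read beside the 12.5% of all tested genes that rose and the 13.1% that fell. The total was 5438 in a fit of the wild-type libraries alone and 6814 in limma voom with quality weights, and counts of lists from those fits are given where they differ by over 1.5 times. Without untreated replicate 1, 1825 genes rose and 1950 fell, and 3601 of these calls were among the 4515. The 3 treated and 3 untreated values did not overlap for 8179 tested genes (46.5%). The same held for 2185 of the 2207 genes that rose and 2275 of the 2308 that fell. A lack of overlap in a called gene, mentioned below, therefore describes its values and adds little to the call.

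**Figure D1:**
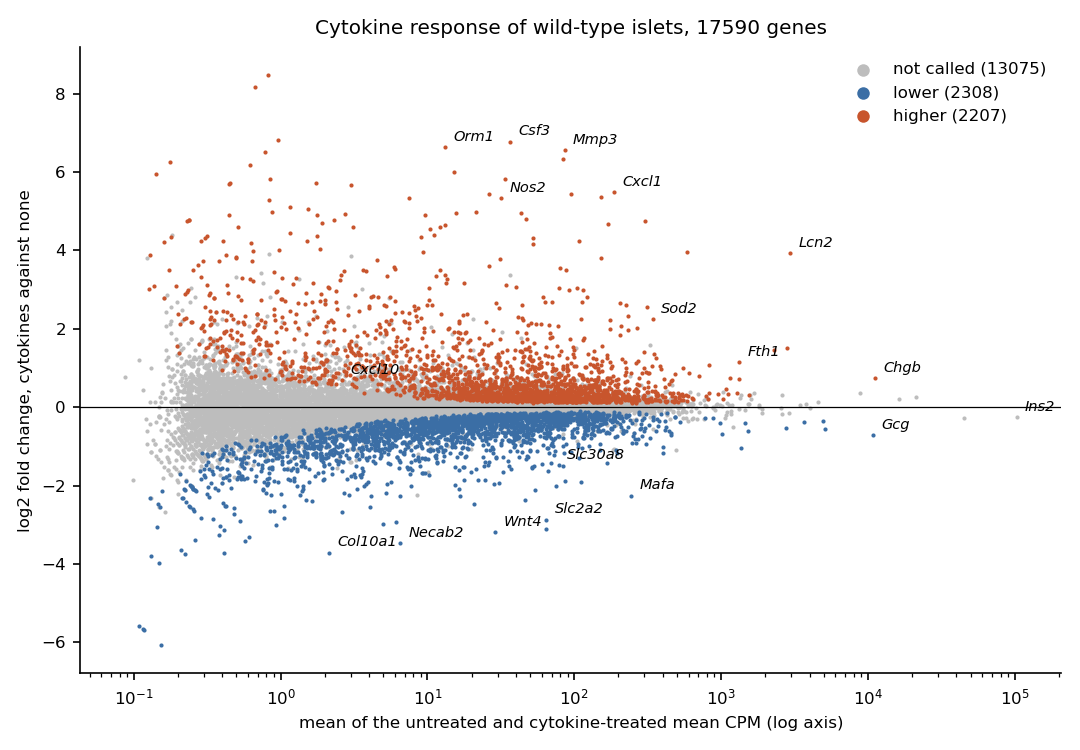
Log2 fold change (cytokine-treated against untreated, vertical axis) against the mean CPM of both wild-type groups (log axis) for the 17590 tested genes, with the 2207 genes that rose, the 2308 that fell and the rest in separate colours. Csf3, Orm1 and Mmp3 lie near the top, and Ins2, the most abundant gene named, lies near 0.

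Csf3 and Mmp3 were among the genes with the largest increases. Csf3 (chr11:98701263-98703629, coordinates here and below in GRCm38), the granulocyte colony-stimulating factor, was at 0.693, 0.834 and 0.44 CPM in the untreated libraries and 69, 72.3 and 75 CPM in the treated ones. Mmp3 (chr9:7445822-7455975), a matrix-degrading enzyme, went from 2.18, 1.75 and 1.43 CPM to 258, 162 and 89.9 CPM. The groups of both genes lay far apart, with Csf3 nearly level among the treated libraries and Mmp3 highest in treated replicate 1 and lowest in treated replicate 3. Their log2 fold changes were 6.78 ± 0.30 (adjusted p = 2.50e-09) and 6.56 ± 0.86 (adjusted p = 8.72e-05). Vnn3, a pantetheinase, was at 0.831, 0.199 and 0.33 CPM and then 29.9, 29.3 and 30.9 CPM, and Serpinb2, an inhibitor of plasminogen activators, at 0.485, 0.357 and 0.22 and then 18.2, 14.9 and 10.6 CPM. Untreated replicate 1 was the highest untreated library for both, and again no untreated value reached a treated one. The change of Vnn3 was 6.00 ± 0.35, or 6.79 without that library. Serpinb2 rose by 5.33 ± 0.76 (adjusted p = 1.57e-04).

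Per kilobase of exon, Chgb (chromogranin B, a granule protein), Lcn2, Spp1, S100a9, Lrg1, Ctsl, Fth1, S100a8, Hamp and Rnase4 gained most among genes that rose. Ctsl, a lysosomal protease, was at 1567, 1027 and 1104 CPM untreated and 3350.1, 3365 and 3385 CPM treated (log2 fold change 1.45 ± 0.16). Rnase4, a secreted ribonuclease, was at 373, 373 and 345 CPM and then 654, 768 and 768 CPM. Fth1, the iron-storing ferritin heavy chain, was at 836, 835 and 796 CPM and then 2121, 1789.5 and 1590.5 CPM (2.23-fold). In each of these 3 genes the lowest treated library exceeded the highest untreated one by a wide margin. Spp1 (osteopontin) was the least settled of the set, at 2001, 1543 and 874 CPM and then 5752, 4095 and 2665 CPM. Its adjusted p was 0.0357, and it did not pass when treated replicate 1 or 2 or untreated replicate 2 or 3 was left out.

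The genes with the largest decreases had varied functions. Col10a1, a collagen, fell most by fold among genes with a mean of at least 2 CPM over both groups, to 0.0764 of its untreated level, from 3.26, 4.29 and 4.4 CPM to 0.455, 0.375 and 0.0784 CPM. Necab2, a calcium-binding protein, fell from 9.66, 11.4 and 14.7 CPM to 0.992, 1 and 1.21 CPM. Both sets of treated values lay below all untreated ones, with Col10a1 spread widely in the treated group. Angptl7, a secreted angiopoietin-like protein, went from 26.3, 38.3 and 41.3 to 5.21, 6.72 and 7.25 CPM, and Edn3, the peptide endothelin 3, from 11.6, 9.25 and 11.7 to 2.6, 1.5 and 2.59 CPM. Cygb (cytoglobin, an oxygen-binding protein, log2 fold change -2.26), Cyb5r2 (a cytochrome b5 reductase, -2.25) and the noncoding RNA Mir670hg (-2.18) completed the list of 15 with Wnt4, Ucn3, Sfrp5, Slc2a2, Zdhhc22, Cd248, Insrr and Mafa. No pair of groups among these 15 genes overlapped, which the rule that chose them required.

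**Figure D2:**
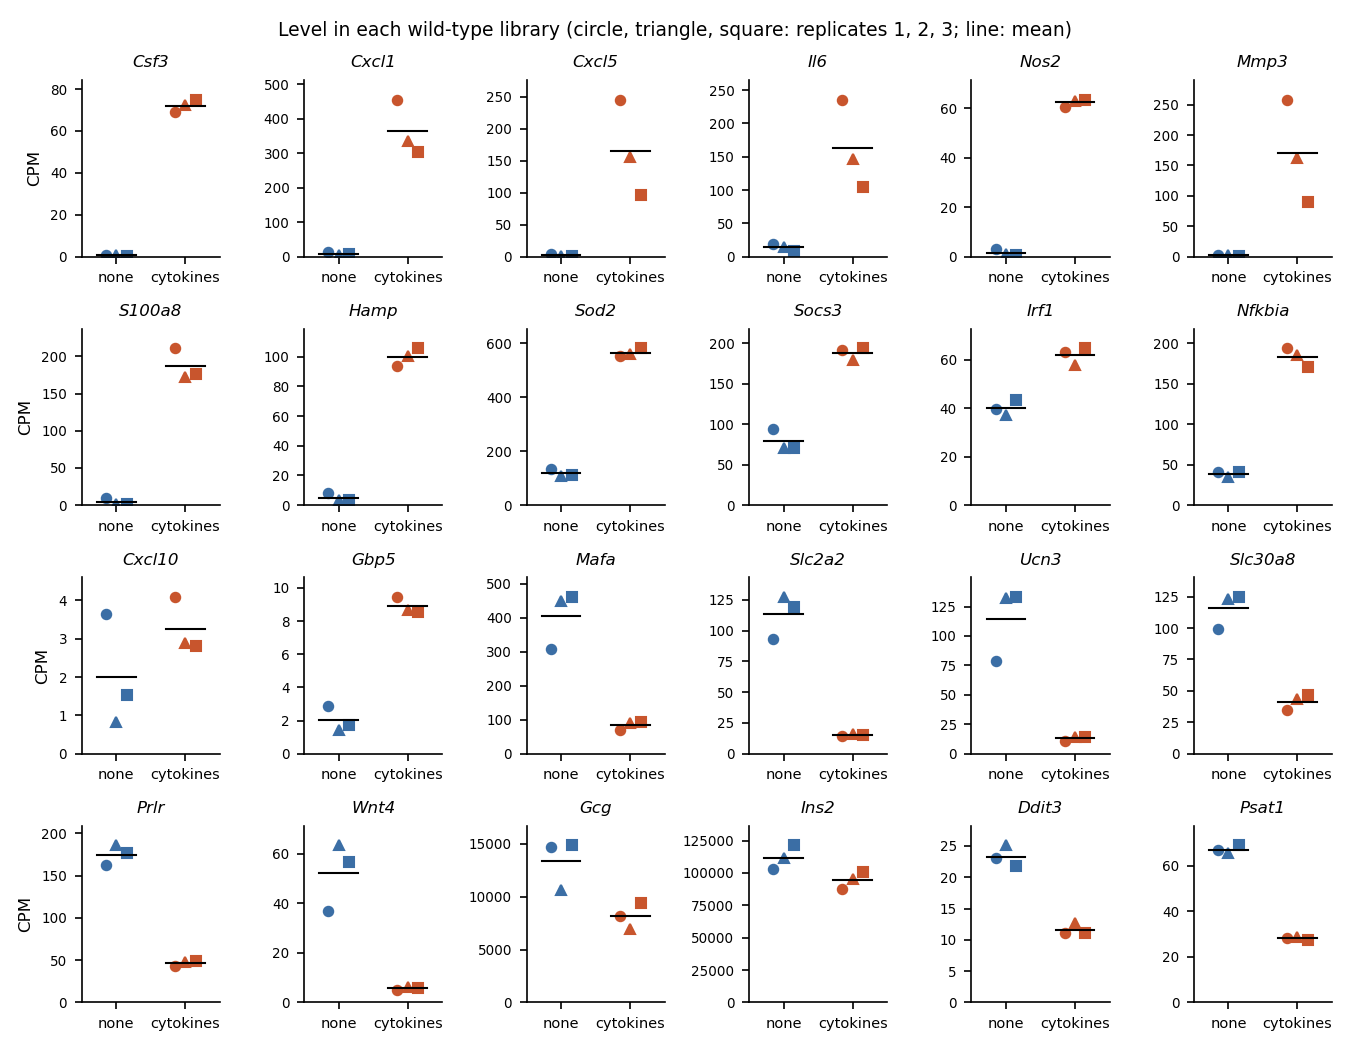
CPM of 24 genes in each untreated and each cytokine-treated wild-type library, with one panel and one axis per gene starting at 0; circles, triangles and squares are replicates 1, 2 and 3 and lines are group means. For S100a8 and Nos2 the untreated circle sits above the other untreated points, and for Mmp3 and Il6 the treated circle is the highest and the treated square the lowest point.

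The receptors and adaptors that read the 3 cytokines rose in part. Of 26 tested genes 14 rose and none fell, with a median log2 fold change of 0.38 against -0.01 over all tested genes. The TNF receptor Tnfrsf1a was at 103, 104 and 102 CPM untreated and 151, 149.9 and 156 CPM treated (log2 fold change 0.57 ± 0.11, adjusted p = 0.00166). Its untreated values were almost equal, and every treated value lay above them. The IL-1 receptor Il1r1 did not pass, at 571, 572 and 564 CPM and then 525, 528 and 537 CPM, while its partner Il1rap rose (0.57 ± 0.10), as did the shared adaptor Myd88 (0.74 ± 0.09). Of the 2 chains of the IFN receptor, Ifngr2 rose by 1.27 ± 0.10 and Ifngr1 gave 0.60 ± 0.26 with an adjusted p of 0.11, passing only in DESeq2, in limma voom and with the wild-type libraries alone. Irak3, a kinase-like inhibitor of IL-1 signalling, rose by 2.36 ± 0.13. The decoy ligand Il1rn went from 23.5, 22.5 and 19.7 CPM to 95.3, 71.1 and 51.9 CPM, a value picked after it was seen.

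NF-kB subunits and inhibitors rose more broadly, with 16 of 20 tested genes higher and none lower (median log2 fold change 1.06). Their summed level was 755.4, 716.9 and 712.6 CPM in the untreated libraries and 1566, 1544 and 1488 CPM in the treated ones. Nfkbia (chr12:55489410-55492647), which encodes the inhibitor IkB alpha and is itself an NF-kB target, was at 40.8, 34.4 and 40.8 CPM untreated and 194, 185 and 171 CPM treated. The treated libraries agreed closely and lay well above the untreated ones, which themselves spanned a narrow range. The log2 fold change was 2.24 ± 0.15 (adjusted p = 7.78e-08). Nfkbiz, an inducible nuclear member of the IkB family, rose by 1.71 ± 0.09, Bcl3, another nuclear member, by 1.77 ± 0.15, Tnip1, a partner of the deubiquitinase A20, by 1.35 ± 0.08, and the kinase gene Ikbke by 1.45 ± 0.10. The other risers, quoted after their values were seen, included Tnfaip3, the gene of A20 (2.23), and the subunits Rel (1.66), Relb (1.13), Nfkb2 (1.10), Nfkb1 (1.02) and Rela (0.33). Chuk, Ikbkg, Cyld and Nfkbid did not pass.

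Neutrophil-attracting CXC chemokines showed some of the steepest increases. Cxcl1 was at 12.9, 5.24 and 6.09 CPM untreated and 456, 337 and 303 CPM treated, and Cxcl2 at 1.59, 1.27 and 1.06 and then 62.7, 36 and 25.9 CPM. In both genes treated replicate 1 was the highest treated library and no values overlapped between groups. The log2 fold changes were 5.49 ± 0.45 (adjusted p = 1.50e-06) and 4.98 ± 0.42 (adjusted p = 1.57e-06). Cxcl5 rose by 6.34 ± 0.70, or 6.99 without untreated replicate 1, and Cxcl3 by 5.83 ± 0.51, or 6.67. In all, 6 of 14 tested CXC and CX3C chemokines rose and none fell (median log2 fold change 1.74). Pf4, a platelet chemokine, rose by 2.72 ± 0.72 and did not pass without untreated replicate 2.

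CC chemokines rose in 5 of 15 tested genes and fell in none (median log2 fold change 2.18). Ccl2, which attracts monocytes, was at 16.9, 9.06 and 11.9 CPM untreated and 191, 123 and 127 CPM treated (log2 fold change 3.54 ± 0.39). Ccl20, a ligand of CCR6, was at 0.139, 0.0794 and 0.147 CPM and then 1.12, 1.13 and 1.29 CPM (3.22 ± 0.42). The treated values of both exceeded all untreated ones. Ccl28 (2.98 ± 0.26), Ccl7 (3.04 ± 0.49) and Ccl3 (2.04 ± 0.49) also rose, while Ccl5, a T cell attractant, gave a 2.23-fold difference and did not pass (adjusted p = 0.306). DESeq2 called 8 members of this list, the wild-type libraries alone 9 and limma voom 11, Ccl5 among them.

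Secreted cytokines rose in 18 of 28 tested genes and fell in none (median log2 fold change 1.45). Il6 was at 18.8, 14.8 and 8.99 CPM untreated and 236, 147 and 105 CPM treated (log2 fold change 3.51 ± 0.46, adjusted p = 9.39e-05). In both groups replicate 1 was the highest library and replicate 3 the lowest. Il17c, an epithelial cytokine, rose by 4.60 ± 0.46 (5.68 in limma voom), and Il1f6 (interleukin 36 alpha) by 4.92 ± 0.36. Tnf, the gene of 1 of the added cytokines, rose by 2.36 ± 0.31 from 1.07, 0.914 and 0.807 CPM to 6.2, 4.05 and 4.15 CPM, still a low level. Csf2, quoted after its values were seen, was near 0 when untreated, at 0.0346, 0.0794 and 0 CPM, and at 2.31, 1.54 and 1.02 CPM when treated, a log2 fold change of 5.29, or 6.18 without untreated replicate 2.

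Some promoters of genes of this arm hold NF-kB type sequences close to their start sites. The stretches printed here were chosen after the values were seen, because these genes rose and because their windows hold matches. They come from RefSeq windows of GRCm38.p6 that run from 250 bases before to 50 after a gene start, and are written 5′ to 3′ on the gene's own strand. Capitals mark every base inside a match to GGGNNNTTCC on either strand. The stretches cover the 120 bases before the start: Cxcl1 at chr5:90891125-90891244 (plus strand), Cxcl2 at chr5:90903779-90903898 (plus), Il6 at chr5:30012994-30013113 (plus), Nfkbia at chr12:55492648-55492767 (minus) and Nfkb2 at chr19:46304617-46304736 (plus).
Cxcl1: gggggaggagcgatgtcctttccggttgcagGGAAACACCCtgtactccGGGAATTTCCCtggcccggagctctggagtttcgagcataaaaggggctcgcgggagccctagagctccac
Cxcl2: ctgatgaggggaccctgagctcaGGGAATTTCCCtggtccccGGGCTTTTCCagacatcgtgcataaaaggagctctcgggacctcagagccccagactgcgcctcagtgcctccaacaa
Il6: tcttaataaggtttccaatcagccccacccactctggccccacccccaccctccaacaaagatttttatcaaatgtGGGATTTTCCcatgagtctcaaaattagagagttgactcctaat
Nfkbia: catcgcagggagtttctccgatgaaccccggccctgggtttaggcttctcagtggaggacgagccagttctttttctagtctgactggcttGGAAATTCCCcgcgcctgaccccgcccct
Nfkb2: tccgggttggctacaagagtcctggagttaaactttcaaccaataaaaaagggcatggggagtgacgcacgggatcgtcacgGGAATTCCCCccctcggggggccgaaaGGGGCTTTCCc
Cxcl1 and Cxcl2 share the run GGGAATTTCCC, in which matches on both strands overlap, and each has another match nearby. The Il6 match reads GGGATTTTCC and the Nfkbia match GGAAATTCCC on the opposite strand. Of the 16 NF-kB list genes with a window 9 hold such a match (56.2%), against 6.31% of the 27025 genes with a window and 7.35% of the 12285 tested ones. Most genes of the other lists had none, with a match in 4 of 11 CXC and CX3C chemokines, 2 of 9 CC chemokines, 2 of 18 cytokines and 3 of 21 acute phase genes. Among genes that rose at least 4-fold the share is 13.2% of 190, among all that rose 9.65% of 1647, among those that fell at least 4-fold 8.47% of 59 and among all that fell 6.03% of 1741. A match describes letters and not binding.

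Acute phase and neutrophil-type defence proteins formed the process list with the highest share of risers: 21 of 25 tested genes rose and none fell (median log2 fold change 3.93). Lcn2, a protein that captures bacterial iron carriers, was at 559, 270.1 and 262 CPM untreated and 5705, 5559 and 5315 CPM treated. Lrg1, a secreted glycoprotein, was at 124, 42.8 and 45.4 CPM and then 1000.4, 1096 and 1220.2 CPM. S100a8, a subunit of calprotectin, was at 9.11, 1.75 and 1.8 CPM and then 211, 172 and 177 CPM. In each of the 3 genes untreated replicate 1 was the highest untreated library by a wide margin, and the treated libraries lay close together far above it. Log2 fold changes were 3.93 ± 0.42 for Lcn2 (4.38 without untreated replicate 1), 3.97 ± 0.59 for Lrg1 (4.65) and 5.44 ± 0.53 for S100a8 (6.71). Leaving out that library likewise raised Orm1 from 6.63 to 8.02, S100a9 from 4.74 to 5.94, Ltf (lactoferrin) from 4.80 to 6.29 and Saa3 (serum amyloid A) from 5.43 to 6.38. Orm2 rose by 5.68 ± 0.48, Saa1 by 4.97 ± 0.48 and Chil1, a chitinase-like protein, by 4.59 ± 0.23. The fibrinogen chains, quoted after they were seen, rose as well: Fga by 4.17 (4.77 without untreated replicate 1), Fgb by 3.82 and Fgg by 2.82. Mt1 (0.17 ± 0.17) and Mt2 (0.42 ± 0.15, adjusted p = 0.0511), metallothioneins of the same list, did not pass, although Mt2 did with RLE size factors, on the authors' filtered genes, in DESeq2 and limma voom, and without treated or untreated replicate 1.

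Several of these proteins are also made by neutrophils, whose markers rose in 6 of the 7 genes that passed the low-count filter, of 15 in the table. The summed level of all 15 was 62.97, 10.05 and 15.77 CPM in the untreated libraries and 946.2, 795.8 and 847.4 CPM in the treated ones. Ly6g had 1 read in the 6 libraries, Elane none and Mpo 4, and the neutrophil receptor Csf3r was at 0.416, 0.516 and 0.183 CPM untreated and 0.372, 0.375 and 0.627 CPM treated. Genes that define the cell were thus at or near 0 in every wild-type library while S100a8, S100a9, Ltf, Mmp8, Camp and Cd177 rose. Camp rose by 3.73, or 4.62 without untreated replicate 2. Cd177 had 0 reads in the 3 untreated libraries and 39, 24 and 36 in the treated ones.

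Lists of genes tied to IFN differed in their median change. Of 23 tested STAT, IRF and SOCS genes 6 rose and 2 fell. Their median log2 fold change was 0.13, against 1.06 for the NF-kB list and 1.03 for the guanylate-binding list below. Irf1, a transcription factor induced by IFN, was at 39.8, 37.3 and 43.4 CPM untreated and 63.3, 57.9 and 64.7 CPM treated (0.63 ± 0.09, adjusted p = 1.35e-04), and its groups did not overlap. The feedback inhibitor Socs1 rose from 2.98, 2.66 and 1.87 CPM to 14.9, 12.8 and 14.3 CPM (2.48 ± 0.36), and Socs3, an inhibitor induced by IL-6 type cytokines, from 94.2, 70.5 and 71.1 to 192, 179 and 194 CPM (1.26 ± 0.16). Stat3 rose by 0.31 ± 0.05 and Stat5b fell, at -0.53 ± 0.07.

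Guanylate-binding proteins, which act against intracellular microbes, rose in 6 of 18 tested genes together with the related immunity GTPases, and none fell (median log2 fold change 1.03). Gbp6 was at 1.32, 1.31 and 0.77 CPM untreated and 7.07, 7.05 and 6.43 CPM treated (2.59 ± 0.22), and Gbp4 at 2.42, 0.914 and 0.844 and then 8.8, 8.38 and 8.78 CPM (2.62 ± 0.45, or 3.29 without untreated replicate 1). Gbp10 (5.66-fold), Gbp9 (log2 fold change 1.66 ± 0.24) and Gbp8 (0.84 ± 0.14) rose too. Members of the Gbp family are near-identical in parts, so reads may be shared among them. The GTPases Irgm1 (0.29 ± 0.13), Irgm2 (0.29 ± 0.19) and Igtp (0.21 ± 0.24), quoted after they were seen, did not pass, although Irgm1 did with the replicate block (adjusted p = 0.0333) and with the wild-type libraries alone.

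Antiviral interferon-stimulated genes rose in 4 of 31 tested genes (12.9%), near the 12.5% of all tested genes. Only 1 fell (3.23%, against 13.1%), and 22 of the 31 changes were positive (median log2 fold change 0.20, against -0.01 over all tested genes). Their summed level was 537.4, 416.1 and 484.4 CPM untreated and 635.5, 547.2 and 614.3 CPM treated. The 4 that rose were Isg20 (0.69 ± 0.09), Parp14 (0.59 ± 0.15), Parp9 (0.39 ± 0.11) and its partner Dtx3l (0.37 ± 0.08), and without untreated replicate 2 only 2 passed. With the replicate numbers as a block 9 rose, in limma voom 8 and with the wild-type libraries alone 7. Cxcl10, an IFN-induced T cell attractant, was at 3.64, 0.834 and 1.54 CPM untreated and 4.09, 2.88 and 2.82 CPM treated. Untreated replicate 1 lay above treated replicates 2 and 3, so the groups overlapped and the change of 0.69 ± 0.56 did not pass (adjusted p = 0.407). Without that library it was 1.45.

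Genes of antigen presentation by MHC class I rose in 10 of 23 tested genes with none lower (median log2 fold change 0.46). Psme2, a proteasome activator subunit, was at 81.5, 71.1 and 78.2 CPM untreated and 137, 133 and 146 CPM treated (0.85 ± 0.09), with no overlap. Psmb10, an immunoproteasome subunit, rose by 0.70 ± 0.11, the peptide-loading factors Tapbp and Tapbpl by 0.68 ± 0.10 and 0.64 ± 0.08, the transporter Tap2 by 0.55 ± 0.09, and the chaperone Calr by 0.34 ± 0.06. The classical heavy chains H2-K1 (0.49 ± 0.21) and H2-D1 (0.33 ± 0.12) and B2m (0.38 ± 0.26), quoted after they were seen, did not pass. With the replicate block H2-K1 (adjusted p = 0.042) and H2-D1 (adjusted p = 0.0102) did, H2-D1 also without untreated replicate 1 (adjusted p = 0.031), and both in limma voom. The standard proteasome rose by small steps, in 24 of 31 subunit genes with none lower (median 0.22), led by Psma6 (0.40 ± 0.05), Psma7 (0.31 ± 0.05), Psmb6 (0.33 ± 0.05), Psmc3 (0.30 ± 0.04) and Psmd14 (0.29 ± 0.04).

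Promoter stretches of genes that interferon and STAT factors are known to regulate are shown for comparison with the NF-kB set, and were also chosen after the values were seen. Capitals here mark matches to GGGNNNTTCC, to TTCNNNGAA (the GAS type bound by STAT dimers) or to GAAANNGAAA (the interferon-stimulated response element, or ISRE, type), on either strand. The positions are Irf1 chr11:53769894-53770013 (plus strand), Socs3 chr11:117969427-117969546 (minus), Hamp chr7:30944030-30944149 (minus), Gbp5 chr3:142496754-142496893 (plus), Irgm2 chr11:58214857-58214976 (plus) and Cxcl10 chr5:92348980-92349109 (minus). Those of Socs3 and Gbp5 begin at position -180 from the gene start, that of Cxcl10 at -220 and the others at -120.
Irf1: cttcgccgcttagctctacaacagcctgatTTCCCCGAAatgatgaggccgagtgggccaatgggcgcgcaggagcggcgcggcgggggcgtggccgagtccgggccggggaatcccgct
Socs3: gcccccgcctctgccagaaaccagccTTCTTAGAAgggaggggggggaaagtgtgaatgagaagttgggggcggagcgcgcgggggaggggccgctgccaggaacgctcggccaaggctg
Hamp: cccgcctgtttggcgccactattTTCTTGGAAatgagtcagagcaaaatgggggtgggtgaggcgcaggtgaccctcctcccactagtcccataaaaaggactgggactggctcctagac
Gbp5: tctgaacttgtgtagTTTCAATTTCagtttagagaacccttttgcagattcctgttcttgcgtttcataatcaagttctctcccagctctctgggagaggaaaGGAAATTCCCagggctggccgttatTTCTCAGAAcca
Irgm2: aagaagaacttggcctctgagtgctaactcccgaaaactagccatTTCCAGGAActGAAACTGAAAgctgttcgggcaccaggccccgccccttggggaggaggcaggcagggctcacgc
Cxcl10: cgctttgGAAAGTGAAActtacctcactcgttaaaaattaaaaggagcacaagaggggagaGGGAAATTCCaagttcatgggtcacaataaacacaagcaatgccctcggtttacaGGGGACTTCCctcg
The Irf1, Socs3 and Hamp stretches each hold a GAS type match and no other, and all 3 genes rose. Gbp5 (2.14 ± 0.58), which rose, has an ISRE, an NF-kB and a GAS type match in its stretch. Irgm2, which did not pass, has a GAS and an ISRE type match, and Cxcl10 an ISRE type match with 2 of NF-kB type. Over windows, the ISRE type occurs in 10 of 11 genes of the guanylate-binding list (90.9%) and 12 of 23 antiviral genes (52.2%), against 3.99% of all 27025. Its share is 6.32% of the 190 that rose at least 4-fold and 6.78% of the 59 that fell at least 4-fold. The GAS type occurs in 9.55% of all, 15.8% of those 190 and 3.39% of those 59. Among all that rose the ISRE and GAS type shares are 4.13% and 9.71%, and among all that fell 2.99% and 8.16%.

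**Figure D3:**
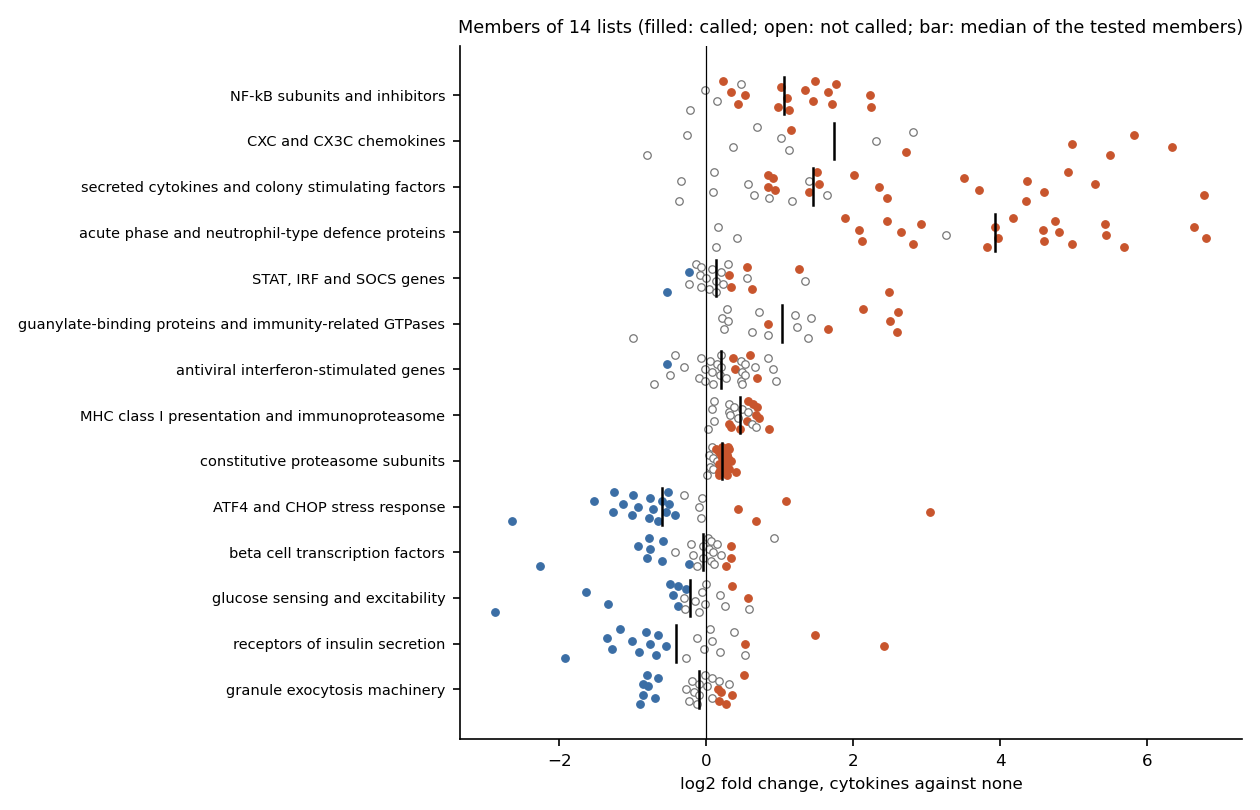
Log2 fold change of every tested member of 14 gene lists (cytokine-treated against untreated), one row per list; filled points passed the test, open ones did not, and the bar is the median. The bars of the NF-kB, cytokine and acute phase rows sit at 1.06, 1.45 and 3.93, that of the antiviral row at 0.20 and that of the ATF4 row at -0.60.

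Genes of nitric oxide production rose at the enzyme and at arginine recycling. Nos2 (chr11:78920787-78960254), the inducible nitric oxide synthase, was at 2.91, 0.874 and 0.734 CPM untreated and 60.5, 63 and 63.5 CPM treated. Untreated replicate 1 held several times the level of the other 2, and its removal moved the log2 fold change from 5.34 ± 0.49 to 6.27. Ass1, which regenerates arginine from citrulline, rose by 1.26 ± 0.23, and Pts, of tetrahydrobiopterin synthesis, by 0.66 ± 0.11. Arg2, the mitochondrial arginase that competes for the same substrate, rose by 2.24 ± 0.34, and the arginine importer Slc7a1 fell, at -0.58 ± 0.06. In the list as a whole 6 of 16 genes rose and 3 fell.

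Iron genes rose in 10 of 17 tested members and fell in 2 (median log2 fold change 0.48). Hamp, the gene of hepcidin, the hormone that blocks iron export, was at 8.1, 3.22 and 3.45 CPM untreated and 93.7, 100.5 and 106 CPM treated (4.33 ± 0.29, adjusted p = 1.69e-07). Steap4, an iron and copper reductase, was at 14.4, 3.73 and 3.15 CPM and then 309.8, 279 and 304 CPM (5.38 ± 0.52, or 6.43 without untreated replicate 1). Treated values of both were far above untreated ones. The importer Slc11a2 rose by 1.33 ± 0.05, and the exporter Slc40a1, quoted after it was seen, fell, at -0.46 ± 0.06.

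Adhesion molecules rose in 7 of 13 tested genes and fell in 1. Icam1, a ligand of leukocyte integrins, was at 23.9, 18.9 and 14 CPM untreated and 129, 119 and 119 CPM treated (2.69 ± 0.45), while Cd44, Cd47, F11r and Alcam rose by 0.98, 0.87, 0.93 and 0.69. Prostaglandin genes rose in 8 of 16, led by Ptgs2 (cyclooxygenase 2), which was at 70.8, 66.3 and 52.9 CPM and then 529, 382 and 247 CPM (2.61 ± 0.40), and by the synthases Ptges (1.59 ± 0.22), Ptges2 (0.61 ± 0.09) and Hpgds (0.70 ± 0.12). That count was 4 without treated replicate 1 or untreated replicate 3 and 5 without untreated replicate 1 or without the low-count filter. Matrix metalloproteinases and inhibitors rose in 7 of 23, among them Mmp10 (4.96 ± 0.67), Mmp8 (4.18 ± 1.07, 4.80 without untreated replicate 1), Mmp9 (3.03 ± 0.77) and Mmp13 (3.49 ± 0.99, 4.44). Mmp13 did not pass without untreated replicate 2 or 3, and the list then gave 4 risers.

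Complement genes rose in 5 of 21 (8 in limma voom, 12 with the wild-type libraries alone) and fell in 1. Cfb, factor B of the alternative pathway, was at 5.06, 2.11 and 3.45 CPM untreated and 28.6, 27.4 and 39.9 CPM treated (3.16 ± 0.30), C3 rose by 2.56 ± 0.49, the protease C1ra by 2.65 ± 0.29 and the inhibitor Serping1 by 1.00 ± 0.16, while the protective surface protein Cd59a fell, at -0.37 ± 0.09. Sensors of microbial products rose in 7 of 21 and fell in 1. Tlr2 (1.49 ± 0.09), the lipopolysaccharide co-receptors Cd14 (2.24 ± 0.50) and Ly96 (0.58 ± 0.14) and the inflammasome sensor Nlrp3 (2.02 ± 0.44) rose, and Nod1 fell, at -0.45 ± 0.09.

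Beta cell identity genes fell in part. Of 26 tested transcription factors 8 fell and 3 rose, or 5 in limma voom or with the wild-type libraries alone (median log2 fold change -0.04). Mafa, an activator of the insulin genes in mature beta cells, was at 307, 449 and 461 CPM untreated and 68.5, 91.5 and 94.4 CPM treated. Pdx1 was at 132, 146 and 160.0 CPM and then 76.2, 86.6 and 93.4 CPM, and Nkx6-1 at 299, 337 and 330.4 and then 154, 179 and 177 CPM. All treated values of the 3 genes lay below all untreated ones, and in each group replicate 1 was the lowest. Log2 fold changes were -2.26 ± 0.23 for Mafa (adjusted p = 7.59e-06), -0.77 ± 0.15 for Pdx1 and -0.92 ± 0.13 for Nkx6-1. Foxo1 fell, at -0.60 ± 0.08, and Glis3 rose by 0.34 ± 0.05. Isl1, Pax6, Rfx6 and Foxa2, read after the values were seen, gave -0.12, -0.04, 0.04 and 0.06 and did not pass.

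The apparatus of glucose sensing fell in 8 of 20 tested genes and rose in 2, and the lower count was 5 without treated replicate 1 or 2. Slc2a2 (chr3:28697903-28731359), the beta cell glucose transporter GLUT2, was at 93.3, 127 and 119 CPM untreated and 14.8, 16.3 and 15.5 CPM treated (-2.87 ± 0.25, adjusted p = 2.17e-06). The potassium channel Kcnk16 fell, at -1.63 ± 0.17, as did the cation channel Trpm2, at -1.33 ± 0.19, and Kcnma1, at -0.38 ± 0.09, while the calcium channel Cacna1c rose by 0.57 ± 0.08.

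Receptors that tune insulin secretion fell in 11 of 22 and rose in 3, or 5 in limma voom or with the wild-type libraries alone (median log2 fold change -0.40). Prlr, the prolactin receptor, was at 162, 186 and 177 CPM untreated and 42.6, 47.9 and 48.4 CPM treated (-1.92 ± 0.16, adjusted p = 1.15e-06), the glucagon receptor Gcgr at 8.45, 10.5 and 8.47 and then 4.05, 3.46 and 3.25 CPM (-1.35 ± 0.19), and the growth hormone receptor Ghr at 139.9, 146 and 147 and then 78.4, 86.8 and 90.3 CPM (-0.76 ± 0.09). None of these groups overlapped. The purinergic receptor P2ry1 fell, at -0.68 ± 0.11, and the adenosine receptor Adora1 rose by 1.48 ± 0.07. Incretin receptors, quoted after they were seen, fell too, Glp1r to 0.565 and Gipr to 0.442 of the untreated level.

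The genes of insulin and of its companion peptide did not pass. Ins1 was at 45159, 49336 and 53203 CPM untreated and 38353, 40857 and 42681 CPM treated (-0.28 ± 0.11, adjusted p = 0.0753), and Iapp, the amyloid peptide secreted with insulin, at 16217, 13668 and 15178 and then 16266, 17924 and 17868 CPM (0.21 ± 0.12, adjusted p = 0.213). Both passed in limma voom and with the wild-type libraries alone, and Ins1 in DESeq2. The groups overlapped in neither gene, with Ins1 lower and Iapp higher in all treated libraries. Among 25 genes of the granule and its cargo 6 fell and 2 rose, and 10 fell in limma voom or with the wild-type libraries alone. Chgb rose by 0.75 ± 0.11, from 9150.2, 7174 and 8569 CPM to 13389.7, 13738 and 14611 CPM, whereas Chga fell, at -0.36 ± 0.12, and Scg3, a granin that binds cholesterol, fell, at -0.52 ± 0.08. Slc30a8, the gene whose loss defines the other genotypes, was at 98.8, 123 and 125 CPM untreated and 34.5, 43.7 and 46.4 CPM treated. Sytl4, a granule-docking effector of Rab27a, fell, at -1.04 ± 0.16, and the processing enzyme Pcsk2, at -0.39 ± 0.12. Chga did not pass without any one of treated replicates 1, 2 and 3 or untreated replicates 2 and 3, and Pcsk2 without treated replicate 1 or 2 or untreated replicate 2 or 3. In exocytosis 7 of 26 genes fell (26.9%, against 13.1% of all tested genes) and 6 rose (23.1%, against 12.5%). Rab3a (-0.90 ± 0.14), Cadps (-0.86 ± 0.13), Cplx2 (-0.79 ± 0.11) and Exph5 (-0.66 ± 0.12) fell, and the SNARE gene Stx1a rose by 0.52 ± 0.07.

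Genes normally silenced in beta cells, the disallowed set, rose in 2 of 18 (11.1%, against 12.5% of all tested genes) and fell in 1. Hk2 (1.39 ± 0.40) and Acot7 (0.65 ± 0.17) were higher. Neither passed without treated replicate 1, and Hk2 also not without untreated replicate 2 or 3. Of 14 dedifferentiation and progenitor genes Mycl rose (1.39 ± 0.21) and 3 fell, Fev (-0.79 ± 0.24), Serpina7 (-0.57 ± 0.17) and Rbp4 (-0.46 ± 0.16). The 3 lower calls became 2 without untreated replicate 2, 0 without treated replicate 1 and 1 without any of the other 4 wild-type libraries or without the low-count filter, and Serpina7 did not pass with the replicate block.

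The ATF4 and CHOP branch of the stress response was lower after treatment, in 17 of 25 tested genes with 4 higher (median log2 fold change -0.60). Ddit3, which encodes CHOP, was at 23.1, 25.1 and 21.7 CPM untreated and 11, 12.7 and 11.1 CPM treated, or 0.498 of the untreated level (adjusted p = 1.06e-04). Psat1 and Phgdh, of serine synthesis, were at 66.6, 65.6 and 68.8 and 64.9, 69 and 71.1 CPM untreated, and at 28.2, 28.9 and 27.3 and 23.9, 30.7 and 30.3 CPM treated. All 3 genes had treated values below every untreated one. Psat1 fell, at -1.25 ± 0.08, Phgdh at -1.27 ± 0.10, the mitochondrial serine enzyme Shmt2 to 0.5 of its untreated level, Chac1, a glutathione-degrading enzyme, at -1.53 ± 0.13 and Atf5 at -0.93 ± 0.12. Against that direction the cystine importer Slc7a11 rose by 3.05 ± 0.33 and the transcription factor Cebpb by 1.09 ± 0.08. Endoplasmic reticulum chaperones showed no shared direction, with 6 of 28 higher (21.4%, against 12.5% of all tested genes) and 5 lower (17.9%, against 13.1%). In limma voom 10 were higher. Hspa5 (BiP) was at 1872, 1772 and 1786 CPM and then 1749, 1878 and 1799.9 CPM, overlapping, while Xbp1 rose by 0.71 ± 0.06, Edem1 by 0.58 ± 0.05, and Wfs1 fell, at -0.55 ± 0.09.

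Death and survival genes rose on both sides, in 15 of 32 tested with 1 lower. The death receptor Fas was at 1.9, 1.51 and 1.47 CPM untreated and 3.64, 4.88 and 4.78 CPM treated (1.44 ± 0.28), and the inhibitor of apoptosis Birc3 at 38.8, 26.9 and 25.9 and then 194, 195 and 196 CPM (2.67 ± 0.18). The anti-apoptotic Bcl2l1 rose by 0.50 ± 0.07 and the BH3-only gene Bmf by 1.00 ± 0.18, and Bbc3 (PUMA) fell, at -1.09 ± 0.15. Antioxidant genes rose in 14 of 32 with 1 lower. The manganese superoxide dismutase Sod2 was at 134, 108 and 112 CPM untreated and 553, 560.1 and 581 CPM treated, and Txnip, an inhibitor of thioredoxin, at 85.6, 92.7 and 94.4 and then 175, 184 and 195 CPM (1.02 ± 0.05). Treated values of both exceeded all untreated ones, and Prdx1 (1.05 ± 0.09), Txn1 (0.67 ± 0.06) and Gsr (0.59 ± 0.05) rose too.

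Energy metabolism genes had medians near 0 as groups. Nuclear genes of oxidative phosphorylation rose in 15 of 79 and fell in 3 (median log2 fold change 0.06), while 9 rose without untreated replicate 2 and 25 in limma voom, and 5 fell without untreated replicate 1 or with the wild-type libraries alone. Cox6a2, a heart and muscle type subunit, was the exception in size, at 2.81, 3.38 and 3.08 CPM untreated and 0.537, 1.13 and 0.94 CPM treated (-1.82 ± 0.25). Cox5a (0.60 ± 0.07), Ndufa4 (0.30 ± 0.06) and Cycs (0.28 ± 0.06) rose. None of 13 mitochondrially encoded genes passed; the smallest p-values were those of mt-Co1 (0.07 ± 0.11) and mt-Co3 (0.12 ± 0.19). Mitochondrial ribosomal genes rose in 9 of 74 (12.2%, against 12.5% of all tested genes) and fell in 2, with Mrpl33 highest at 0.76 ± 0.08. The number higher was 5 without treated replicate 3 or untreated replicate 2 and 14 in limma voom.

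In carbon metabolism, glycolytic genes rose in 5 of 24 (20.8%, against 12.5% of all tested genes) and fell in 4 (16.7%, against 13.1%). Their median log2 fold change was 0.28. The number higher was 3 when treated replicate 1 or untreated replicate 2 or 3 was left out, 9 in limma voom and 13 with the wild-type libraries alone. The neuronal type glucose transporter Slc2a3 fell, at -1.20 ± 0.21, as did Pfkfb2 (-0.84 ± 0.13), Eno2 (-0.78 ± 0.17) and Pfkm (-0.63 ± 0.10). Genes of pyruvate entry and the citrate cycle rose in 8 of 30 (5 without untreated replicate 3 or without the low-count filter) and fell in 4. Acod1, which makes itaconate, was at 1.77, 1.07 and 0.587 CPM untreated and 8.88, 7.8 and 7.41 CPM treated (2.80 ± 0.32), and the pyruvate dehydrogenase kinase Pdk4 at 31.6, 26 and 33.1 and then 8.35, 9.59 and 11 CPM (-1.65 ± 0.19). In fatty acid oxidation 3 of 22 rose (5 in limma voom) and 3 fell. Each share was 13.6%, against 12.5% higher and 13.1% lower over all tested genes. The number lower was 2 without treated replicate 3 and 1 without any other wild-type library. Hadh, an enzyme that restrains insulin secretion, was lowest at -1.09 ± 0.15. Cholesterol synthesis genes rose in 7 of 24 and fell in 2, led by Mvd (1.03 ± 0.12), and 3 rose without treated replicate 1 and 4 without untreated replicate 3.

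Membrane transporters of amino acids rose in 4 of 20 (20%, against 12.5% of all tested genes) and fell in 6 (30%, against 13.1%). Slc6a14, a broad importer of neutral and cationic amino acids, was at 1.56, 0.794 and 0.513 CPM untreated and 28.8, 30.2 and 31.5 CPM treated (4.96 ± 0.27), and the serine transporter Slc1a4 fell, at -0.73 ± 0.07, like Slc7a5 (-0.52 ± 0.08). Zinc transporters and metallothioneins rose in 5 of 25 (20%, against 12.5% of all tested genes) and fell in 2 (8%, against 13.1%). The lower ones included Slc30a8 itself. The importer Slc39a1 rose by 0.74 ± 0.12, the transporters Slc39a6 and Slc30a7 by 0.37 ± 0.07 and 0.38 ± 0.06, and the cell surface exporter Slc30a1 by 0.29 ± 0.05.

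Wnt genes fell in 6 of 30 (20%, against 13.1% of all tested genes) and rose in 3 (10%, against 12.5%). Wnt4, a Wnt ligand made by mature beta cells, was at 36.9, 63.4 and 56.6 CPM untreated and 5, 6.26 and 5.96 CPM treated. The secreted antagonists Sfrp5 and Sfrp1 fell, at -2.93 ± 0.32 and -0.70 ± 0.14, the receptor Ror2 at -0.66 ± 0.06, and Lgr4, a receptor of R-spondins, rose by 0.48 ± 0.10. D cyclins and their inhibitors fell in 4 of 15 (7 in limma voom), among them Ccnd1 (-0.85 ± 0.16) and Ccnd2 (-0.65 ± 0.11), and Cdkn2b, which encodes the inhibitor p15, rose by 1.27 ± 0.12. Replication and mitosis genes had a median of -0.62, and Kif11 (-1.48 ± 0.43), Mcm2 (-0.57 ± 0.15) and E2f1 (-0.77 ± 0.17) of 29 fell. That share was 10.3%, against 13.1% of all tested genes. Only 1 of the 3 passed without treated replicate 2, and Kif11 also failed to pass without treated replicate 3 or untreated replicate 1. The number lower was 5 in DESeq2, 6 with the replicate block, 11 with the wild-type libraries alone and 13 in limma voom.

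Immediate early genes rose in 10 of 23 with 1 lower, including Ier3 (1.23 ± 0.19), Junb (1.00 ± 0.16), Zfp36 (0.66 ± 0.11), whose product destabilises cytokine RNAs, and Dusp1 (0.56 ± 0.09), a phosphatase of MAP kinases. Clock genes fell in 6 of 19 and rose in 1: Npas2, a partner of the clock protein BMAL1, was at 29.4, 26.3 and 22.1 CPM untreated and 75.5, 88.6 and 78.2 CPM treated (1.64 ± 0.11), while Ciart (-1.21 ± 0.19), Hlf (-1.32 ± 0.35) and Cry2 (-0.35 ± 0.09) fell. The lower count was 3 without treated replicate 2 or untreated replicate 2. Hlf did not pass without treated replicate 2. Collagens and matrix genes fell in 3 of 25 (12%, against 13.1% of all tested genes), Col10a1, Col14a1 (-0.88 ± 0.19) and Col8a1 (-0.54 ± 0.14). The count was 6 with the replicate block or the wild-type libraries alone, and 11 in limma voom. Col8a1 did not pass without treated replicate 2 or untreated replicate 3.

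**Figure D4:**
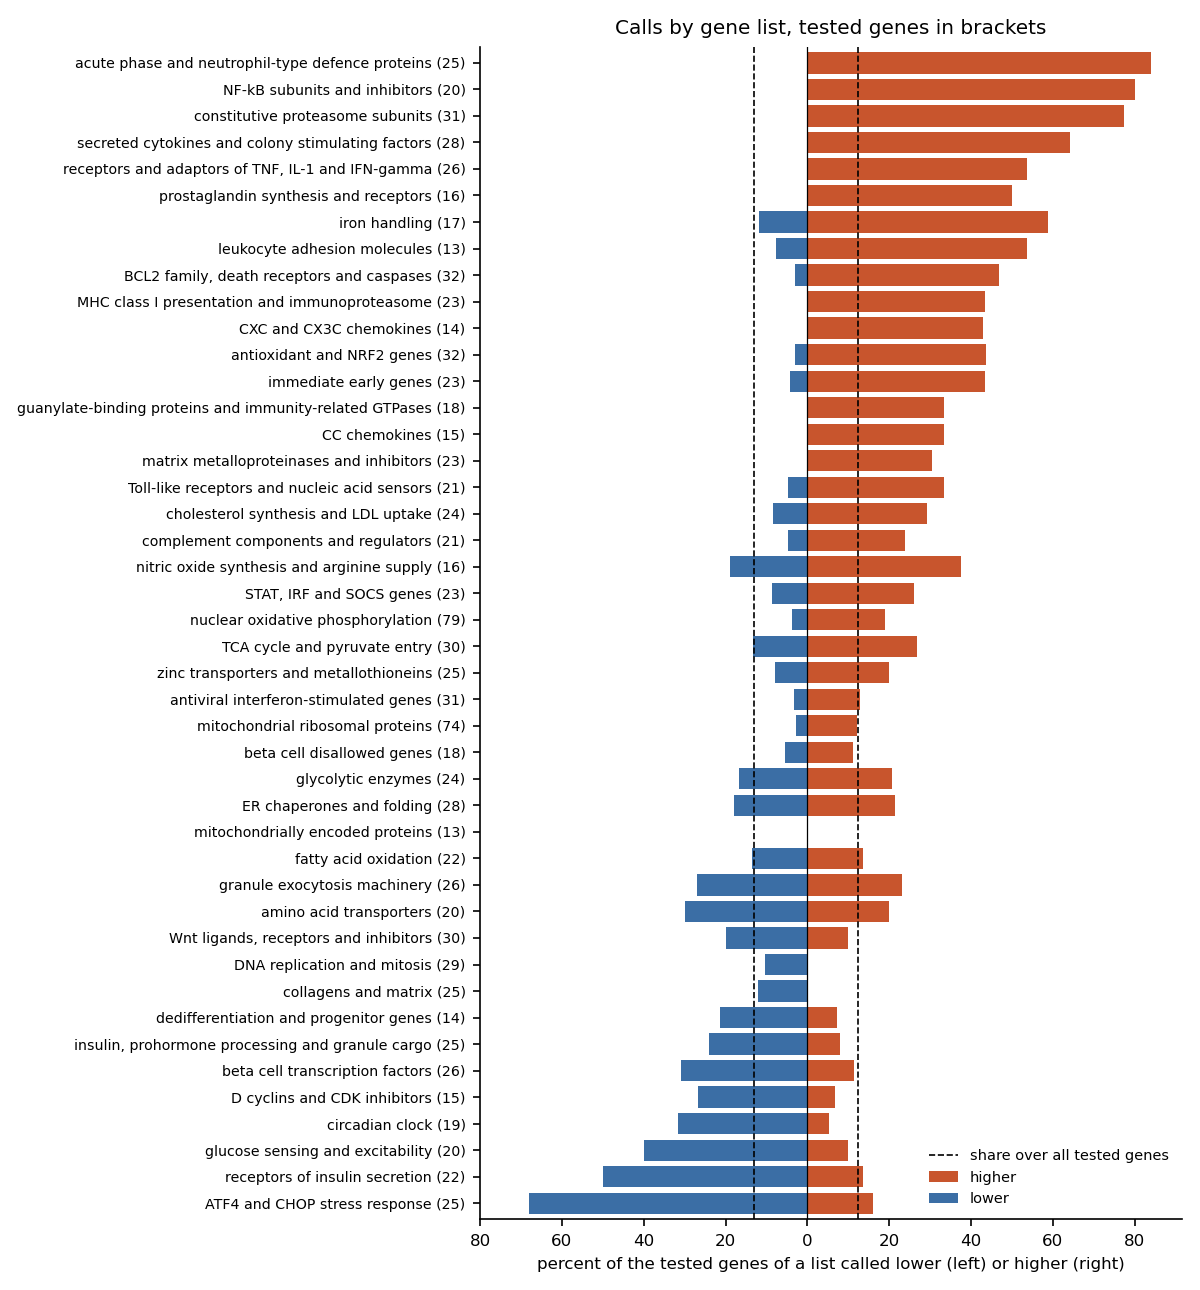
Percent of the tested genes of each of 44 process lists that rose (right) or fell (left), with the number tested in brackets; dashed lines mark the share over all tested genes, 12.5% higher and 13.1% lower. Acute phase, NF-kB and proteasome lists reach furthest right and the ATF4 and secretion receptor lists furthest left, while the bars of mitochondrially encoded genes are empty.

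Among the hormone genes of other islet cells Gcg, Sst and Pyy fell. Gcg, the alpha cell hormone glucagon, was at 14729, 10609 and 14839 CPM untreated and 8217, 6957 and 9426 CPM treated (-0.71 ± 0.19, adjusted p = 0.0115), and it did not pass without treated replicate 2 or untreated replicate 3. Alpha cell markers fell in 8 of 14 and rose in none (5 without treated replicate 2), with Kcnj3 (-1.61 ± 0.34), Ttr (-1.42 ± 0.23), Gria3 (-1.02 ± 0.11) and Cltrn (-0.57 ± 0.09) lower, while the alpha cell factor Irx2 (0.10 ± 0.15) did not pass. Sst, the delta cell hormone, was at 6105, 4906 and 7029 CPM and then 3765, 3783 and 4831 CPM (-0.54 ± 0.16, adjusted p = 0.0236), and of 10 delta cell markers 3 fell, which became 0 without treated replicate 1 or 2 or untreated replicate 1 and 1 without untreated replicate 3. Sst did not pass in any of these 4 fits. The count was 1 without the low-count filter or with the wild-type libraries alone and 5 in limma voom. Pyy fell, at -1.05 ± 0.18. Ppy varied most, at 744, 1959.8 and 1499 CPM untreated and 138, 1106 and 1739.9 CPM treated, and overlapped between groups.

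Markers of cells other than hormone cells moved in both directions. Duct markers summed to 5686, 5052 and 4570 CPM untreated and 10130, 9214 and 7183 CPM treated, and 6 of 19 rose, among them Ehf (1.44 ± 0.15), Prom1 (0.99 ± 0.13) and Cldn7 (0.67 ± 0.07). Krt19, Krt7 and Sox9, which define the cell, did not pass. Pericyte and stellate markers summed to 1560, 1756 and 1762 CPM and then 1370, 969.7 and 771.7 CPM, and 7 of 20 fell (3 without treated replicate 2 or 3, untreated replicate 2 or the low-count filter, and 12 in limma voom). Mgp (-1.95 ± 0.27), Notch3 (-1.22 ± 0.28), Cspg4 (-0.85 ± 0.24) and Abcc9 (-0.80 ± 0.23) fell, and Cd248 most. Macrophage markers summed to 254.5, 229.6 and 220.3 CPM and then 623.7, 487.3 and 366.3 CPM, but Cd14 alone of 22 passed. None of 29 tested acinar markers passed. The sum of all 31, with those below the low-count filter, was lowest in treated replicate 1. It was 6681, 12780 and 11350 CPM treated against 10010, 9936 and 9995 CPM untreated. Endothelial markers gave 1 call each way of 21, Ehd4 (0.39 ± 0.09) and Kdr (-0.57 ± 0.19), and Kdr did not pass without treated replicate 2 or 3 or untreated replicate 1 or 2. In the treated group, replicate 1 had the highest and replicate 3 the lowest sum of duct, pericyte, endothelial and macrophage markers, as they did for Mmp3, Il6, Cxcl5, Ptgs2 and Cd14 but not for Csf3. Of 17 T, B and NK cell markers 3 passed the low-count filter. The part of these cells in the values of single genes was not tested.

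**Figure D5:**
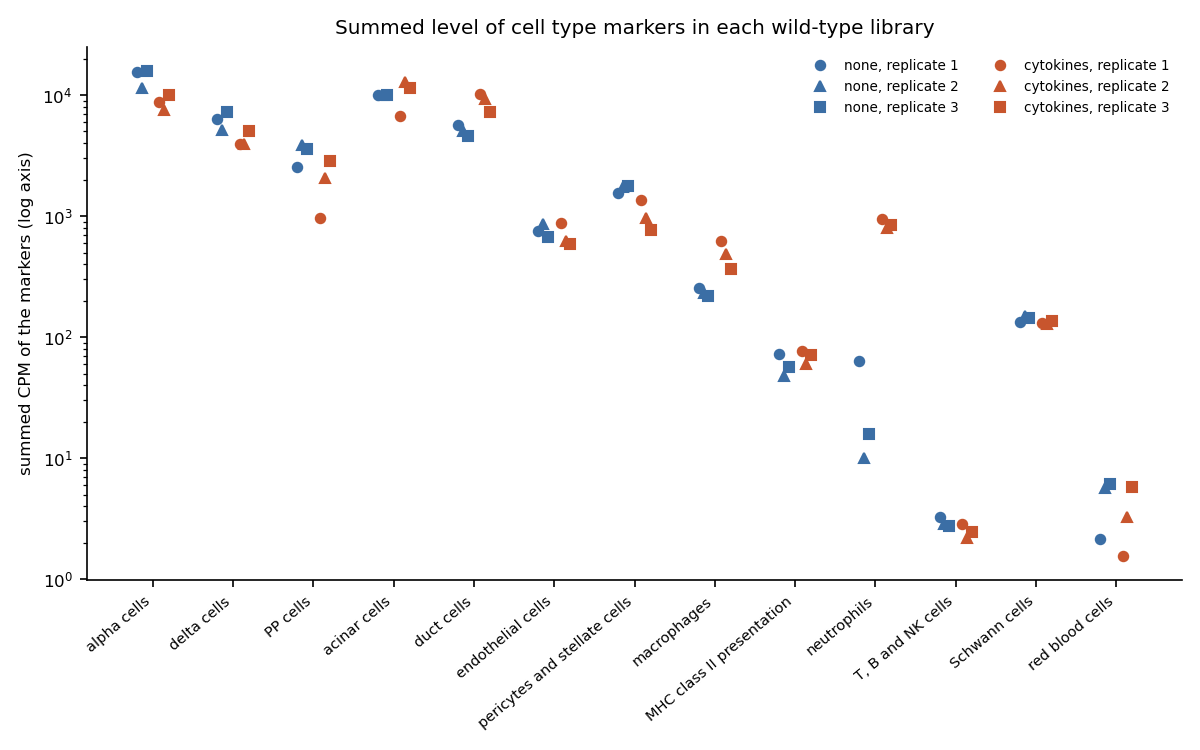
Summed CPM of all markers of each cell type, also those below the low-count filter (log axis), in every wild-type library. Untreated and cytokine-treated libraries are in separate colours, with circles, triangles and squares for replicates 1, 2 and 3. The neutrophil list rises from 10.05 to 62.97 CPM untreated to 795.8 to 946.2 CPM treated, and the pericyte list drops below all its untreated values.

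The wild-type response was also set against the responses of heterozygous and knockout islets through interaction terms of the edgeR fit. Between heterozygous and wild-type islets none of 17590 genes passed the test of a different response (0%), with 841 at an unadjusted p under 0.05, and DESeq2 and limma voom also called 0. The genes with the smallest p were Ogdhl, Pdk3 and Optn. Between knockout and wild-type islets 2 genes passed (0.0114%), Slc6a14 and Gm19680, with 1184 at an unadjusted p under 0.05. In wild-type islets Slc6a14 was at 1.56, 0.794 and 0.513 CPM untreated and 28.8, 30.2 and 31.5 CPM treated. In knockout islets it averaged 0.038 ± 0.0408 CPM untreated and 42.9 ± 2.31 CPM treated (SD, n = 3), so the untreated levels lay further apart by fold than the treated ones. Its response was larger in knockout islets by 5.05 on the log2 scale (adjusted p = 0.0374 in edgeR). The untreated knockout level rests on few reads, and so does the size of this difference. The call held with RLE size factors, with only the groups compared, in DESeq2 and without untreated wild-type replicate 3. It did not hold in the remaining settings, for example with the replicate block (adjusted p = 0.165) and without untreated wild-type replicate 1 (adjusted p = 0.0945).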

How the data were processed

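RNA-seq read counts of 18 islet libraries, 3 in each of 6 groups of genotype and treatment, were taken as the authors deposited them, as raw counts per gene for 55536 genes. Per the submitters' processing notes, the tools were STAR 2.5.2a, featureCounts 1.6.2, FastQC 0.11.7, DESeq2 1.30.0 and cutadapt 1.16, with genome build GRCm38. Neither labels nor headers give a strand setting, and reads of overlapping, antisense or near-identical genes may therefore be shared. No total or unassigned entries entered the tests.

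Genes were kept by filterByExpr with a count minimum of 10 and fitted over all 18 libraries with edgeR 4.0.16 (TMM factors, robust quasi-likelihood fit, 12 residual degrees of freedom) in R 4.3.3, at an adjusted p threshold of 0.05. The contrast was cytokine-treated minus untreated wild-type, and responses were compared between genotypes by interaction terms. Exon lengths and coordinates came from GENCODE (GRCm38) and promoter windows from RefSeq (GRCm38.p6). A gene counts as matching a motif if any of its 32851 windows in all does.

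The text names Slc30a8, the 15 higher and 15 lower genes of largest log2 fold change (mean of at least 2 CPM, groups not overlapping, no placeholder symbol), the 10 of largest change per kilobase each way, up to 5 called members per list by adjusted p (2 by p where none passed), the genes of smallest p in each interaction and a fixed set of receptors, hormones and stress genes. Others were chosen after their values were seen, and a few genes these rules name are not reported here. The members, 44 process lists and 13 marker lists were chosen with earlier results of these data known.

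Same-numbered untreated and treated wild-type libraries deviated together (r = 0.194, 0.104 and 0.464 over 11713 genes), each over the 0.1 set as the limit. Untreated replicate 2 and treated replicate 1 also did (r = 0.243), and same-numbered libraries of the other genotypes did not meet that rule. Pairing by number is therefore not settled. The main fit did not use it, so its standard errors, p-values and counts ignore any pairing, which entered only in the fit with the replicate block. Results were recomputed in DESeq2 1.42.0, with RLE size factors, without the filter, on the genes the authors' filtered table holds, with only the groups compared, in limma 3.58.1 voom with quality weights, with the replicate number as a block, and without each library in turn.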

Additional observations from a re-analysis of the deposited data

Results flagged for a closer look

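The response to cytokines differed between knockout and wild-type islets by edgeR's interaction test in Slc6a14 and Gm19680. For Slc6a14, an amino acid transporter, the knockout response exceeded the wild-type response by 5.05 on the log2 scale (adjusted p = 0.0374). It rose in both, from a mean of 0.038 to 42.9 CPM in knockout islets, where the untreated level rests on few reads. For the processed pseudogene Gm19680 the difference was -2.40 (adjusted p = 0.0374). It was at 0.97, 0.993 and 1.21 CPM in untreated and 1.78, 2.09 and 2.39 CPM in treated wild-type libraries, and at 0.992 ± 0.204 and 0.367 ± 0.0317 CPM in knockout islets (SD, n = 3), all below 3 CPM. Neither difference passed without untreated wild-type replicate 1 (adjusted p = 0.0945 and 0.112).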

How the results depend on the processing

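The 4515 calls in wild-type islets became 3903 to 5438 with RLE size factors, without a filter on low counts, on the authors' filtered gene set, with only the groups compared and in DESeq2. limma voom with quality weights called 6814 genes (3340 higher, 3474 lower). With the replicate block there were 4574 (2207 higher, 2367 lower), of which 4148 were among the 4515. Leaving out 1 wild-type library gave 3368 to 3854 calls (1639 to 1904 higher and 1645 to 1986 lower). None of the 4515 genes was called in the opposite direction in any of these settings, and of the named genes in each setting 3863 values kept their call, 125 lost and 26 gained it. The replicate block ended the call for Cpt1a, Muc1, Pdk3 and Serpina7 among the genes named by rule, and H2-K1, H2-D1 and Irgm1, named after they were seen, passed with it. The number of genes whose response differed between knockout and wild-type islets was 2 with RLE size factors, 4 without the filter, 0 with the authors' filtered gene set, 6 with only the groups compared, 53 in DESeq2, 15 in limma voom, 1 with the replicate block and 0 to 2 when a library was left out. The heterozygous comparison gave 0 in every setting. The causes were not tested. Depth limits genes with few reads: Csf2 had 1, 2 and 0 reads in the untreated wild-type libraries, and its fold rests on them.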

Other observations

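Several genes outside the lists, picked after their values were seen, changed by large factors. Zc3h12a, which encodes the RNase regnase-1 that degrades cytokine RNAs, was at 14.4, 8.18 and 9.65 CPM in the untreated and 208, 207 and 196 CPM in the treated libraries (log2 fold change 4.24 ± 0.29). The surface protein gene Plet1 went from 14.7, 11 and 12.7 CPM to 371, 340.2 and 269 CPM, the transcription factor Cebpd from 107, 61.4 and 62.9 to 385, 375 and 401 CPM and the kinase Lyn from 16.1, 12.8 and 12.6 to 68.1, 68.5 and 68.3 CPM. Treated and untreated values were apart in all 4 genes.

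Ddc and Th, of monoamine synthesis, fell, and were also picked after their values were seen. Ddc, the decarboxylase that makes dopamine and serotonin, was at 101, 131 and 131 CPM untreated and 26.6, 32.8 and 30.4 CPM treated (log2 fold change -2.01 ± 0.20), and Th, tyrosine hydroxylase, at 8.35, 9.65 and 8.77 and then 2.15, 2.67 and 2.31 CPM (-1.91 ± 0.20). Of 3 further genes, the calcium-sensing receptor Casr fell, at -1.65 ± 0.18, the glucose-responsive transcription factor Mlxipl (ChREBP) at -1.50 ± 0.24 and Aldh1l2, of mitochondrial folate metabolism, at -1.89 ± 0.16. Of 272 genes that rose at least 4-fold 78 were in a process list, and of 90 that fell at least 4-fold 7 were.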
